A study of Mus musculus with 2 samples.

Results

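The cells described here are Wt1+ Pdgfra+ stromal cells of mouse gonadal white adipose tissue (gWAT) with few transcripts of mesothelial keratin genes and few of the cell cycle. They were chosen by their measured UMI counts, where a UMI is a sequenced transcript counted once. A cell was kept if it held a UMI of Wt1, a UMI of Pdgfra and UMIs of at least 3 of the 8 genes Itm2a, Ptn, Cpxm1, Ncam1, Olfml3, Cyp7b1, Ereg and Mdk. It could hold UMIs of at most 4 of 10 mesothelial genes (Krt19, Krt7, Krt8, Krt18, Upk3b, Upk1b, Msln, Lrrn4, Gpm6a and Nkain4, the keratin list). It had to hold fewer than 4 of 10 cell cycle genes, fewer than 4 of 6 genes of fibroblastic progenitors (Clec3b, Dpt, Mfap5, Col14a1, Postn and Svep1) and no Ptprc, the gene of the leukocyte antigen CD45. The rule kept 4087 of the 18753 cells that passed quality control, 3196 from lean mice and 891 from obese mice, out of 20912 barcodes in all.

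The study traced cells that had responded through the aryl hydrocarbon receptor (AHR). Male mice carried Cyp1a1Cre and the R26LSL-eYFP reporter, so a cell in which the Cyp1a1 promoter has driven Cre stays eYFP+ with its progeny, whether or not it still transcribes Cyp1a1. For 12 weeks, lean mice ate purified food with 10% fat (low-fat diet, LFD) and obese mice food with 60% fat (high-fat diet, HFD). All mice, in both groups, received the AHR ligand FICZ (10 mg/kg) 5 days before the gWAT was taken, the stromovascular fraction was prepared and live eYFP+ cells were sorted. The labels give no age, no group went without FICZ, and no eYFP- cells were among the libraries. Each diet is 1 library from pooled mice with no map from cells to mice. Diets could therefore not be compared by a test, and diet, animals, sort and library cannot be told apart. Every interval below is a 95% interval that covers counting error only.

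Wt1, a zinc finger transcription factor, marks the mesothelium and the stroma beneath it in visceral fat, and is low in subcutaneous fat. Pdgfra, a receptor tyrosine kinase, marks adipose stem and precursor cells. In AHR signalling a ligand such as FICZ releases AHR from its cytosolic chaperones, AHR pairs with ARNT in the nucleus, and the pair induces detoxifying enzymes (Cyp1a1, Cyp1b1, Nqo1) and feedback genes (Tiparp, Ahrr) through DNA elements with the core GCGTG.

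The promoters of AHR target genes are shown because they carry that core beside genes measured in these cells. Each is the 250 bases before the RefSeq start (build GRCm38.p6), on the strand of the gene, with the letters GCGTG, or CACGC where the core is on the other strand, in capitals. Over all 32851 RefSeq mouse promoters of this length, 28.2% held at least 1 core on either strand and 2.77% held at least 3. Cyp1a1 (chr9:57697363-57697612, plus strand) held 1 match, Cyp1b1 (chr17:79715062-79715311, minus strand) 1, Tiparp (chr3:65528197-65528446, plus strand) 1 and Ahrr (chr13:74292332-74292581, minus strand) 3. Nqo1 and Ugt1a6a held 0 in the same window. A match is a description of letters, and binding was not measured.
Cyp1a1: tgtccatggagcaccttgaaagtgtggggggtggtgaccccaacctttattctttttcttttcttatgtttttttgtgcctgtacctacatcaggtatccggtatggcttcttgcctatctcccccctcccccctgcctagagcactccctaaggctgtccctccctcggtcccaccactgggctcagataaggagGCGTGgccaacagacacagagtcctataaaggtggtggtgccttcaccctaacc
Cyp1b1: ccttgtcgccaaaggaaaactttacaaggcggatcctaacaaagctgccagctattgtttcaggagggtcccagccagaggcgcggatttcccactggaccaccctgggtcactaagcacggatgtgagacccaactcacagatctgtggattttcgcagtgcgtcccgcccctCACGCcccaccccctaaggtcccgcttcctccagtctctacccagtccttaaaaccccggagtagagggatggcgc
Tiparp: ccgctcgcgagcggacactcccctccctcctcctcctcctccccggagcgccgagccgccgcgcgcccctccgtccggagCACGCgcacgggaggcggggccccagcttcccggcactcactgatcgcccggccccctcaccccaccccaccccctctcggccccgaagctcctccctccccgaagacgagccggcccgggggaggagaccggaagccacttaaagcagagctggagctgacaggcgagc
Ahrr: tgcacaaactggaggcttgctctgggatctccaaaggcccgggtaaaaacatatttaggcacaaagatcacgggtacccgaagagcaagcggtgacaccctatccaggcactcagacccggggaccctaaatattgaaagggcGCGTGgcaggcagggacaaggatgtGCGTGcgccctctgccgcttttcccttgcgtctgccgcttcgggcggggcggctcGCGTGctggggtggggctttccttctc

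On LFD, 11281 barcodes carried 114311020 UMIs in total, and on HFD 9631 barcodes carried 119498750. Quality control (500 to 40000 UMIs, at least 100 genes, under 12.5% mitochondrial UMIs) left 10216 and 8537 cells. The libraries shared 27 barcodes, 2 of them among the chosen cells, and neither eYFP nor Cre was counted as a gene, so the sort could not be checked. Doublets were not called. The chosen cells were sequenced more deeply per cell on HFD, with a median of 17507 UMIs and 4230 genes against 11656 UMIs and 3264 genes on LFD. Their median mitochondrial share was 5.98% on LFD and 5.72% on HFD. Plasma cells were 2.39% of LFD cells and 13.1% of HFD cells.

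The chosen cells made up 31.3% (Clopper-Pearson interval 30.4 to 32.2) of the cells on LFD but 10.4% (9.80 to 11.1) of those on HFD, an HFD to LFD ratio of 0.334 (0.309 to 0.359). Among cells with UMIs of both Wt1 and Pdgfra they were 55.0% on LFD and 23.9% on HFD. The share of keratin-high Wt1+ cells, defined as 5 or more genes of the keratin list, was 10.8% on LFD and 18.8% on HFD. Cycling Wt1+ cells were 10.7% and 9.07%, and fibroblastic progenitors 1.88% and 6.29%. As the HFD cells were deeper and the rule counts detected genes, all cells were also thinned to 5000 UMIs and the rule applied again. The share was then 25.7% on LFD and 6.04% on HFD, a ratio of 0.235.

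The conditions on the 8 markers and on the keratin list each removed more HFD cells than LFD cells. The marker condition removed 860 of 5813 LFD cells and 1239 of 3721 HFD cells with UMIs of Wt1 and Pdgfra. Of the cells that had met the conditions on Wt1, Pdgfra and the 8 markers, 4150 of 4953 on LFD and 1484 of 2482 on HFD held at most 4 keratin-list genes. The chosen LFD cells held 0, 1, 2, 3 and 4 such genes in 642, 1114, 743, 436 and 261 cells, with a median of 1. The chosen HFD cells held them in 22, 130, 231, 263 and 245 cells, with a median of 3. Just outside the limit, 188 LFD cells and 202 HFD cells held 5 keratin-list genes and met every other condition, so the limit cut through a continuous range on both diets. Cells with 4 and with 5 keratin-list genes had close levels of Wt1, at 333 and 326 CPM (UMIs of the gene per 1000000 UMIs, summed over cells) on LFD and 335 and 363 CPM on HFD. Pdgfra was at 371 and 342 CPM on LFD and 290 and 246 CPM on HFD in the same cells.

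**Figure D1:**
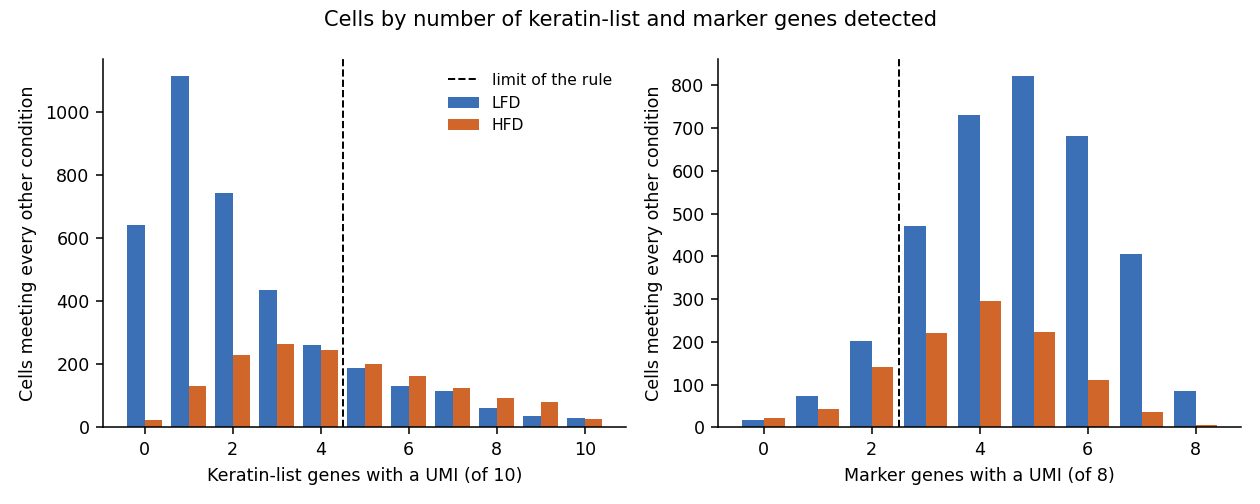
Number of cells (vertical axis) by the number of keratin-list genes of 10 (left) and of marker genes of 8 (right) with a UMI, in cells that met every other condition, for LFD (blue) and HFD (orange); the dashed line is the limit of the rule. LFD cells were most frequent at 1 keratin-list gene and HFD cells at 3, and cells continued past the limit on both diets.

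Cells also lay on both sides of the other limits. The LFD cells held a median of 5 of the 8 markers and the HFD cells 4, with 470 and 220 cells at the minimum of 3 and 201 and 140 cells just outside it at 2. Of the cell cycle genes, none was detected in 1693 LFD cells (53.0%) and 344 HFD cells (38.6%). At the limit, 170 LFD and 81 HFD cells held 3 cycle genes, and 69 and 51 cells just outside held 4. Of the fibroblastic genes, 36 LFD and 30 HFD cells held 3, and 24 and 14 cells just outside held 4. That limit lay in a trough, with 51 and 42 cells at 5 fibroblastic genes and 61 and 176 at 6.

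The genes that chose the cells are given as a description. Wt1 (chr2:105126529-105173616, plus strand, GRCm38) was at 318 CPM on LFD and 325 CPM on HFD, a ratio of 1.02 (0.988 to 1.05). Pdgfra (chr5:75152292-75198215, plus strand) was at 508 CPM on LFD and 337 CPM on HFD. Itm2a, a transmembrane protein of mesenchymal precursors, was at 614 and 191 CPM, and Ptn, a heparin-binding growth factor, at 79.1 and 17.8 CPM. Cpxm1, a secreted carboxypeptidase-like protein, was at 465 and 278 CPM, Ncam1, a cell adhesion molecule, at 138 and 61.2 CPM, and Olfml3, a secreted matrix protein, at 298 and 147 CPM. Cyp7b1, an oxysterol hydroxylase, was at 186 and 92.1 CPM, the growth factor Mdk at 134 and 70.3 CPM, and Ereg, an EGF receptor ligand, at 161 and 159 CPM. Of the 8 markers, 7 were lower on HFD and Ereg had a ratio of 0.993, in cells required to hold at least 3 of them.

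The label was set beside genes that the rule did not use. Fibrillar collagens were high, with Col1a1 at 7649 CPM on LFD and 5399 CPM on HFD and Col3a1 at 12902 and 12061 CPM. The stromal matrix list summed to 55387 and 46748 CPM. Its sums were 36259 and 37621 CPM in keratin-high cells and 97983 and 1.01e+05 CPM in fibroblastic cells. A list of other mesothelial genes summed to 6882 and 3928 CPM. Its sums were 10579 and 6870 CPM in keratin-high cells and 1201 and 1133 CPM in fibroblastic cells. Of the keratin list, which the rule capped, Krt19 was at 21.1 CPM on LFD and 31.8 CPM on HFD, against 339 and 364 CPM in keratin-high cells, which the same list defines. Transcripts of the capped list were still present, with Nkain4, a membrane protein that binds the sodium pump, at 190 CPM on LFD and 357 CPM on HFD. The list was split by diet. Krt7 (10.8 and 4.36 CPM), Krt18 (1.97 and 0.506 CPM) and Msln (3.32 and 1.26 CPM) were lower on HFD. Krt19, Krt8, Upk3b, Upk1b, Lrrn4 and Nkain4 were higher, and Gpm6a was at 14.4 and 16.3 CPM. The genes of other cell types differed in how far they were present. Plasma cell genes had the highest sum of the immune lists, 490 CPM on LFD and 1382 CPM on HFD, and its most widespread gene was detected in 85.4% and 99.8% of cells. The 8 endothelial genes summed to 55.6 and 53.9 CPM here and to 6460 and 8094 CPM in endothelial cells. Myeloid genes summed to 76.7 and 59.2 CPM, B cell genes to 78.5 and 49.0 CPM, T cell and innate lymphoid genes to 39.0 and 48.0 CPM, and Schwann cell genes to 19.7 and 33.4 CPM. The mural list summed to 253 and 248 CPM, most of it Des, at 153 and 165 CPM, and Kcnj8, at 90.9 and 76.2 CPM. The adipocyte list summed to 660 and 795 CPM, of which Fabp4 gave 610 and 761 CPM. Adipoq itself held 5 counts on LFD and 4 on HFD.

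A UMI in a cell can also come from free RNA in the droplet, so shares of cells were set beside those of endothelial cells, which should lack stromal genes. The endothelial cells held UMIs of at least 3 of 5 endothelial genes and were chosen without UMIs of Pdgfra or Ptprc. Their shares of stromal genes may therefore understate free RNA. After thinning to 5000 UMIs, which kept 3171 LFD and 891 HFD chosen cells and 271 and 181 endothelial cells, Wt1 was detected in 78.5% and 78.6% of chosen cells and in 5.54% and 4.97% of endothelial cells. As Wt1, Itm2a and Ptn are genes of the rule, their shares in the chosen cells are a description. Itm2a was detected in 49.98% and 25.4% of chosen cells and in 5.17% and 4.42% of endothelial cells, and in 59.4% and 37.8% of chosen cells before thinning. Ptn was detected in 17.6% and 5.72% of chosen cells and in 0 endothelial cells on either diet, which allows shares of up to 1.11% and 1.66%. Shares were higher in plasma cells chosen without regard to Wt1 or Pdgfra, 367 on LFD and 1341 on HFD, and not thinned. Of these, 23.4% and 13.4% held Wt1, 17.98% and 8.95% Itm2a, and 3.81% and 0.373% Ptn.

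The cells were next set against other cells of the same libraries. These folds describe the same cells that the rule chose and carry no test. Over all other cells that passed quality control, the genes with the highest folds on both diets were led by Pappa, a metalloproteinase that cleaves IGF-binding proteins. Pappa was at 36.3 CPM on LFD and 56.8 CPM on HFD, 3.18 and 3.50 times the level in the other cells. Tgfb2, a TGF-beta ligand, was at 85.6 and 106 CPM, 2.93 and 3.10 times the other cells, although fibroblastic progenitors held as much (86.5 and 116 CPM). Some of the genes named by this comparison are known from neurons or neuroendocrine cells. They include Ptprn, a protein of secretory granules, at 33.3 and 21.7 CPM (2.72 and 3.51 times), and Nrxn2, a synaptic adhesion protein, at 41.6 and 44.8 CPM (2.44 and 2.45 times). The fibrillar collagen Col24a1 was at 118 and 136 CPM, 2.37 and 2.43 times the other cells. The other cells include the keratin-high and cycling Wt1+ cells, in which Col24a1 was at 63.6 to 94.1 CPM.

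Against keratin-high cells, the 10 genes with the highest folds included matrix genes, and also the enzymes Cyp2f2 and Aoc1, the transporter Slc7a2 and the receptor F2r. Cthrc1, a secreted collagen-associated protein, was at 85.6 CPM on LFD and 23.6 CPM on HFD, 9.54 and 10.7 times the keratin-high level. Mmp2, a gelatinase, was 11.3 and 6.13 times, Col15a1, a basement membrane collagen, 9.51 and 8.08 times, and Islr 7.82 and 9.26 times the keratin-high level. The imprinted RNA H19 was 6.46 and 9.19 times that level. Fibroblastic cells held the first 4 of these genes at higher levels than the chosen cells, with Cthrc1 at 311 and 237 CPM, Mmp2 at 352 and 434 CPM, Col15a1 at 385 and 429 CPM and Islr at 127 and 278 CPM. The 10 genes furthest below keratin-high cells included Krt14, a keratin of stratified epithelium, with Cldn3, Prg4, Sema3c, Slc6a4 and Ano1. Krt14 was at 0.793 and 0.0632 CPM against 37.7 and 15.9 CPM in keratin-high cells, the claudin Cldn3 at 2.33 and 5.56 against 40.7 and 56.4 CPM, and the lubricant protein Prg4 at 11.4 and 12.7 against 98.3 and 102 CPM.

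Against fibroblastic progenitors, the 10 genes furthest below included genes that those progenitors held at far higher levels. The rule itself capped 6 fibroblastic genes, and how many genes differed in each direction was not counted. Sult1e1, an oestrogen sulfotransferase, was at 0.128 CPM on LFD and 0.253 CPM on HFD in the chosen cells and at 87.0 and 292 CPM in fibroblastic cells. Mfap4, a protein of elastic fibres, was at 0.971 and 1.07 CPM against 277 and 337 CPM, and the small proteoglycan Aspn at 0.383 and 1.01 against 185 and 207 CPM. In the other direction, Tdo2, which opens the ring of tryptophan, was at 188 and 173 CPM, 10.4 and 13.9 times the fibroblastic level. Bnc1, a transcription factor of mesothelium, was at 30.9 and 41.3 CPM (9.55 and 8.92 times), and Sox6 at 12.5 and 13.8 CPM (8.99 and 8.62 times). Stfa3, one of a family of near-identical stefin genes whose reads may be shared, was at 35.7 and 20.8 CPM. The fibroblastic cells held few counts of these genes, 3 and 10 of Sox6, 5 and 6 of Stfa3 and 7 and 29 of Bnc1, so folds against them are imprecise. Keratin-high cells also held Tdo2 (221 and 188 CPM), Bnc1 (49.2 and 56.3 CPM), Sox6 (21.2 and 26.4 CPM) and Stfa3 (108 and 24.3 CPM) above the fibroblastic level.

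**Figure D2:**
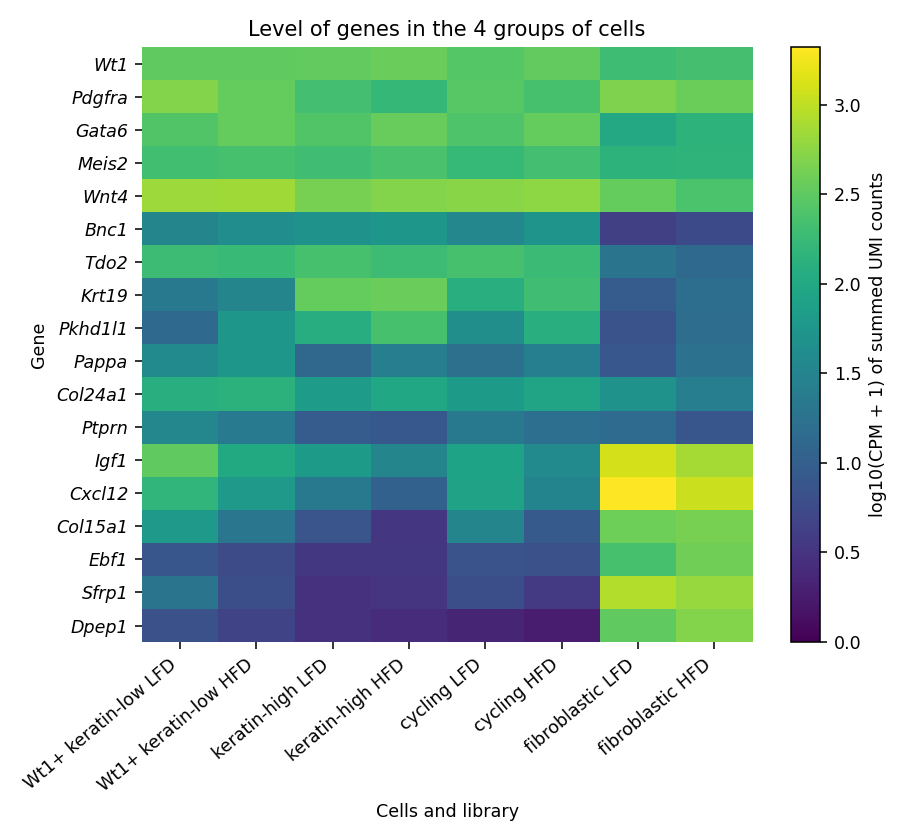
Level of 18 genes (rows) as log10(CPM + 1) of summed UMI counts, by colour, in Wt1+ keratin-low cells and in keratin-high, cycling and fibroblastic cells of each library (columns). The Wt1+ keratin-low cells held Wt1 near the level of the keratin-high cells, Krt19 well below it, and Igf1 and Cxcl12 between the keratin-high and the fibroblastic cells.

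The chosen cells were also graded among themselves. Within each diet, cells with 0 or 1 keratin-list gene were set beside those with 2 to 4, as a description along the rule's own measure. On LFD, in 1756 and 1440 cells, Igf1 was at 382 CPM with 0 or 1 keratin-list gene and 249 CPM with 2 to 4, Cxcl12 at 190 and 106 CPM, and Mmp2 at 76.0 and 22.6 CPM. On HFD, in 152 and 739 cells, Igf1 was at 142 and 97.1 CPM, Cxcl12 at 99.1 and 52.4 CPM, and Mmp2 at 24.5 and 10.7 CPM. These genes were thus higher in the cells with fewer keratin-list genes on both diets. Genes in the opposite order were Aldh1a1, a retinaldehyde dehydrogenase, at 65.0 and 141 CPM on LFD and 136 and 220 CPM on HFD, and Tnfrsf11b, the RANKL decoy receptor osteoprotegerin, at 18.4 and 53.3 CPM on LFD and 67.8 and 124 CPM on HFD. In both strata Igf1 and Cxcl12 were lower on HFD, and Aldh1a1 and Tnfrsf11b higher. The chosen cells held at most 1 keratin-list gene in 54.9% of LFD cells and 17.1% of HFD cells, so diet ratios over all chosen cells also include this difference in makeup.

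Variation from cell to cell was measured as the variance over the mean of UMI counts, after thinning each cell to 5000 UMIs. The median gene stood at 1.04 on LFD and 1.05 on HFD, and 21 genes were among the 30 highest on both diets. Saa3, an acute phase apolipoprotein, had a median of 65 UMIs per cell and a 90th percentile of 171 on LFD, against 14 and 52 on HFD, with ratios of variance to mean of 53.9 and 27.8. Slpi, a secreted protease inhibitor, had medians of 16 and 8 UMIs. Serpinb2, an inhibitor of plasminogen activators, had medians of 7 and 12, and the monocyte chemokine Ccl2 of 4 and 6. These genes were detected in most cells on both diets and varied in amount. Other genes were detected in a minority of thinned cells, above their shares in endothelial cells. The neutrophil chemokine Cxcl2 was detected in 30.3% of LFD and 36.0% of HFD cells (6.27% and 5.52% of endothelial cells), and the tenth of cells with most Cxcl2 held 70.2% and 61.0% of its UMIs. Cxcl13, the B cell chemokine, was detected in 16.4% and 7.63% of cells and in 0.369% and 1.10% of endothelial cells, and in 2.93% and 0.0898% of plasma cells. The highest ratios of all, 250 on LFD and 249 on HFD, belonged to Igkc, an immunoglobulin gene not made by stromal cells, of which single cells held up to 979 and 880 UMIs after thinning.

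**Figure D3:**
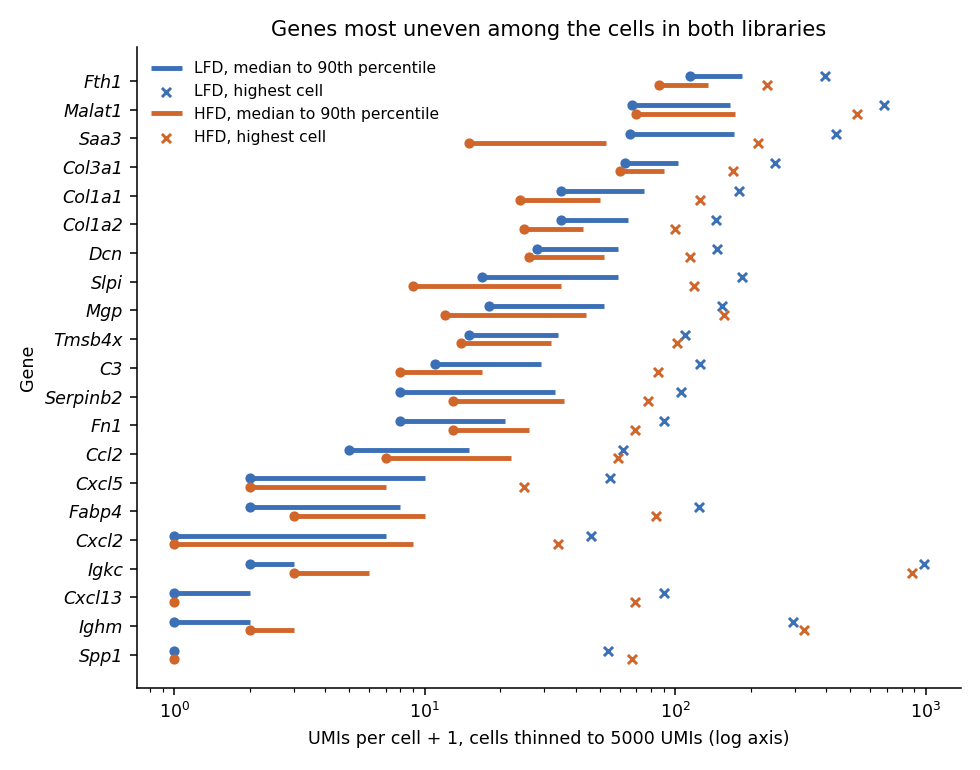
UMIs per cell plus 1 (horizontal, log axis), in cells thinned to 5000 UMIs, for the 21 genes most uneven among Wt1+ keratin-low cells on both diets; dots are medians, lines run to the 90th percentile and crosses mark the highest cell, for LFD (blue) and HFD (orange). The range of Saa3 was lower on HFD, and the highest cells held 979 and 880 UMIs of Igkc while its medians were 1 and 2.

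The question put to the diet comparison was how the chosen cells differed between lean and obese mice. Of 11389 genes with at least 100 counts over both diets, 143 (1.26%) were at least 2-fold higher on HFD and 268 (2.35%) at least 2-fold lower, and the median log2 ratio was 0.08. In cells with at least 2000 UMIs and under 5% mitochondrial UMIs the order turned, with 109 higher (1.40%) and 100 lower (1.28%) of 7806 genes. With 1 library per diet these are counts of genes past a fold and not of genes that passed a test. The 2-fold limit was also passed by 132 higher and 104 lower genes of 11036 in keratin-high cells. In cycling cells 156 higher and 149 lower genes of 10761 passed it, and in fibroblastic cells 274 higher and 78 lower of 7552. The genes named below are the 15 with the highest lower bound and the 15 with the lowest upper bound of the ratio, without the genes of the rule.

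Of the 15 genes higher on HFD, 5 that code for secreted or membrane proteins are given first. Pnoc, the precursor of the neuropeptide nociceptin (chr14:65400673-65425472, minus strand), was at 27.0 CPM on LFD and 179 CPM on HFD, a ratio of 6.64 (6.19 to 7.13). It was detected in 6.09% of thinned LFD cells and 23.7% of thinned HFD cells, against 0.738% and 3.87% of endothelial cells, and its ratio was 17.4 in keratin-high and 22.9 in fibroblastic cells. In cells with at most 1 keratin-list gene the ratio of Pnoc was 2.68. Aqp5, a water channel (chr15:99590782-99594829, plus strand), was at 6.31 and 71.4 CPM, a ratio of 11.3 (9.85 to 13.0), and was detected in 2.78% and 22.3% of thinned cells. Of the endothelial cells, 0 on LFD (allowing up to 1.11%) and 1.10% on HFD held Aqp5. Pkhd1l1, the large membrane protein fibrocystin-L, was at 12.5 and 56.1 CPM, a ratio of 4.48 (4.01 to 5.01) that was 2.83 in cells with 2 to 4 keratin-list genes. Tnfrsf11b was at 35.1 and 115 CPM, a ratio of 3.28 (3.06 to 3.52). Dlk1, the membrane protein Pref-1 that restrains adipogenesis (chr12:109452823-109463336, plus strand), was at 13.4 and 50.8 CPM, a ratio of 3.79 (3.39 to 4.24). Keratin-high cells had a close ratio of 3.78, and fibroblastic cells one of 3.19 (1.15 to 12.3) on only 4 LFD counts. Thinned cells with Dlk1 were 4.98% on LFD and 13.5% on HFD, and endothelial cells with Dlk1 were 0 on both diets.

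The remaining genes of that group were of mixed function. Pfn1, which binds actin monomers, was at 39.8 CPM on LFD and 131 CPM on HFD, a ratio of 3.28 (3.07 to 3.51), with ratios of 2.57 and 2.24 in keratin-high and fibroblastic cells. The secreted protease Adamts19 was at 13.8 and 48.1 CPM, the phosphatase Dusp4 at 2.45 and 11.8 CPM, Vat1l at 2.79 and 12.6 CPM, and Samd5 at 2.05 and 12.8 CPM. The chaperone gene Hspa1b, whose reads may be shared with its near-identical neighbour Hspa1a, was at 6.93 and 24.2 CPM. Xlr, of an X-linked family with similar copies, had the highest ratio, 17.7 (9.85 to 34.5), but on 13 counts in 10 LFD cells and 93 counts in 38 HFD cells.

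The 15 genes higher on HFD also included the plasma cell genes Iglc1, Ighm and Jchain. Iglc1, a light chain constant gene, was at 5.78 CPM on LFD and 83.2 CPM on HFD, Ighm at 98.6 and 317 CPM, Jchain at 13.9 and 67.2 CPM, and the related Igkc, outside the 15, at 279 and 849 CPM. Of the plasma list, 5 of 6 genes with enough counts were past 2-fold higher, but Igkc was so in 9 of 13 settings (lowest ratio 1.32) and Mzb1 in 8 (lowest ratio 1.10). As a percentage of their level in plasma cells, Igkc was at 0.142% on LFD and 0.401% on HFD, Ighm at 0.140% and 0.373%, Jchain at 0.125% and 0.414%, and Iglc1 at 0.0885% and 0.308%. One HFD cell held 42.4% of the Igkc counts and 47.3% of the Iglc1 counts. Plasma cells were 5.49 times as frequent on HFD, and the part of their RNA in these values was not tested.

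**Figure D4:**
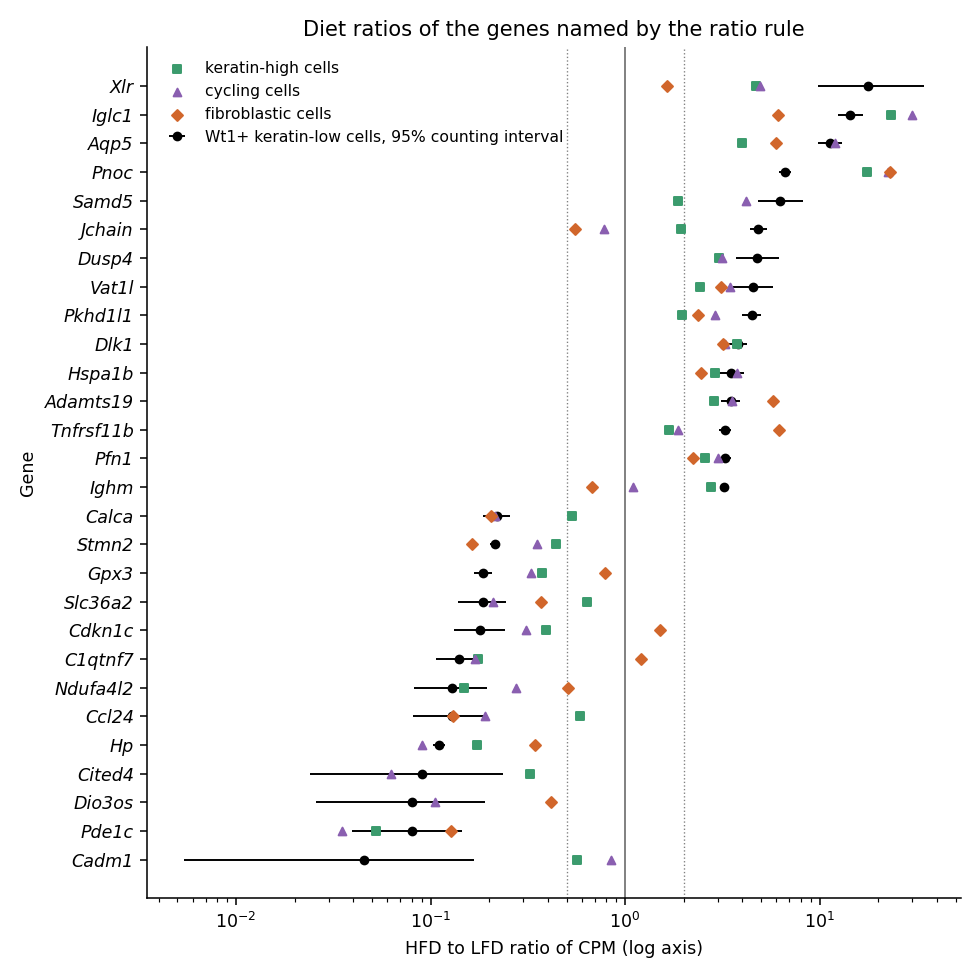
HFD to LFD ratio of CPM (horizontal, log axis) of the named genes (rows) in Wt1+ keratin-low cells (black, with 95% counting intervals) and in keratin-high (green squares), cycling (purple triangles) and fibroblastic cells (orange diamonds); dotted lines mark 2-fold. Pnoc had higher ratios in keratin-high and fibroblastic cells than in Wt1+ keratin-low cells, on 5 LFD counts in the fibroblastic cells, Aqp5 had a lower one in keratin-high cells, and Hp was below 0.5 in all 4 groups.

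Among genes lower on HFD, Hp, the haemoglobin-binding acute phase protein haptoglobin (chr8:109575128-109579172, minus strand), was at 468 CPM on LFD and 51.8 CPM on HFD, a ratio of 0.111 (0.103 to 0.119). It was detected in 57.3% and 14.8% of thinned cells against 14.02% and 7.73% of endothelial cells and 3.35% and 0.629% of plasma cells. Stmn2, a tubulin-binding protein known from neurons, was at 402 and 85.7 CPM, a ratio of 0.213 (0.202 to 0.226), and was detected in 54.2% and 21.9% of thinned cells. Gpx3, a secreted glutathione peroxidase, was at 133 and 24.9 CPM, a ratio of 0.187 (0.168 to 0.207). Its ratio was 0.373 in keratin-high, 0.327 in cycling and 0.784 in fibroblastic cells. The adipokine-like C1qtnf7 was at 27.1 and 3.79 CPM, a ratio of 0.140 (0.106 to 0.182) against 0.176 in keratin-high and 1.20 in fibroblastic cells. Calca, the gene of calcitonin and CGRP, was at 51.0 and 11.2 CPM, and the eosinophil chemokine Ccl24 at 11.3 and 1.45 CPM, a ratio of 0.129 that was 0.476 with the rule applied after thinning. The cell cycle inhibitor Cdkn1c was at 17.3 and 3.10 CPM, a ratio of 0.179 (0.131 to 0.240) against 0.394 in keratin-high and 1.51 in fibroblastic cells.

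The other named genes lower on HFD were each held by at most 45 HFD cells, as were C1qtnf7 (43 cells), Cdkn1c (38) and Ccl24 (20) above. The phosphodiesterase Pde1c was at 8.69 and 0.695 CPM, a ratio of 0.0800 (0.0396 to 0.145), Ndufa4l2 at 11.7 and 1.52 CPM and the amino acid transporter Slc36a2 at 19.1 and 3.54 CPM. Cadm1 held 109 counts on LFD and 2 on HFD, Cited4 110 and 4, and Dio3os, which is transcribed opposite Dio3, 154 and 5. The chemokine Ccl5 held 173 counts on LFD and 0 on HFD (at most 0.190 CPM), but in 6 LFD cells, of which 1 held 72.3%. All 15 genes lower on HFD stayed past 2-fold in each of the 13 alternative settings that could move a gene's ratio, and all 15 higher ones did so except Ighm, in 2 settings. Nearest to 1, the ratio was 0.344 for Cdkn1c, 0.367 for Calca, 0.294 for Slc36a2 and 0.181 for Hp, and 8.31 for Xlr, 4.02 for Samd5, 3.01 for Vat1l, 5.34 for Iglc1 and 2.06 for Jchain.

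Listed genes were then read by function, with each list chosen with earlier results of these data known. Without the genes of the rule, 31 lists held 417 genes, of which 318 had enough counts, 22 (6.92%) were past 2-fold higher on HFD and 33 (10.4%) past 2-fold lower. Of all genes 1.26% were higher and 2.35% lower, and 35.5% and 17.5% had counting intervals above and below 1, and every list count below is to be read beside these shares. Of these, 11 of the 22 and 16 of the 33 stayed past 2-fold in all 13 settings that could move a ratio. For the others named below, the ratio in the setting nearest to 1 is given.

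**Figure D5:**
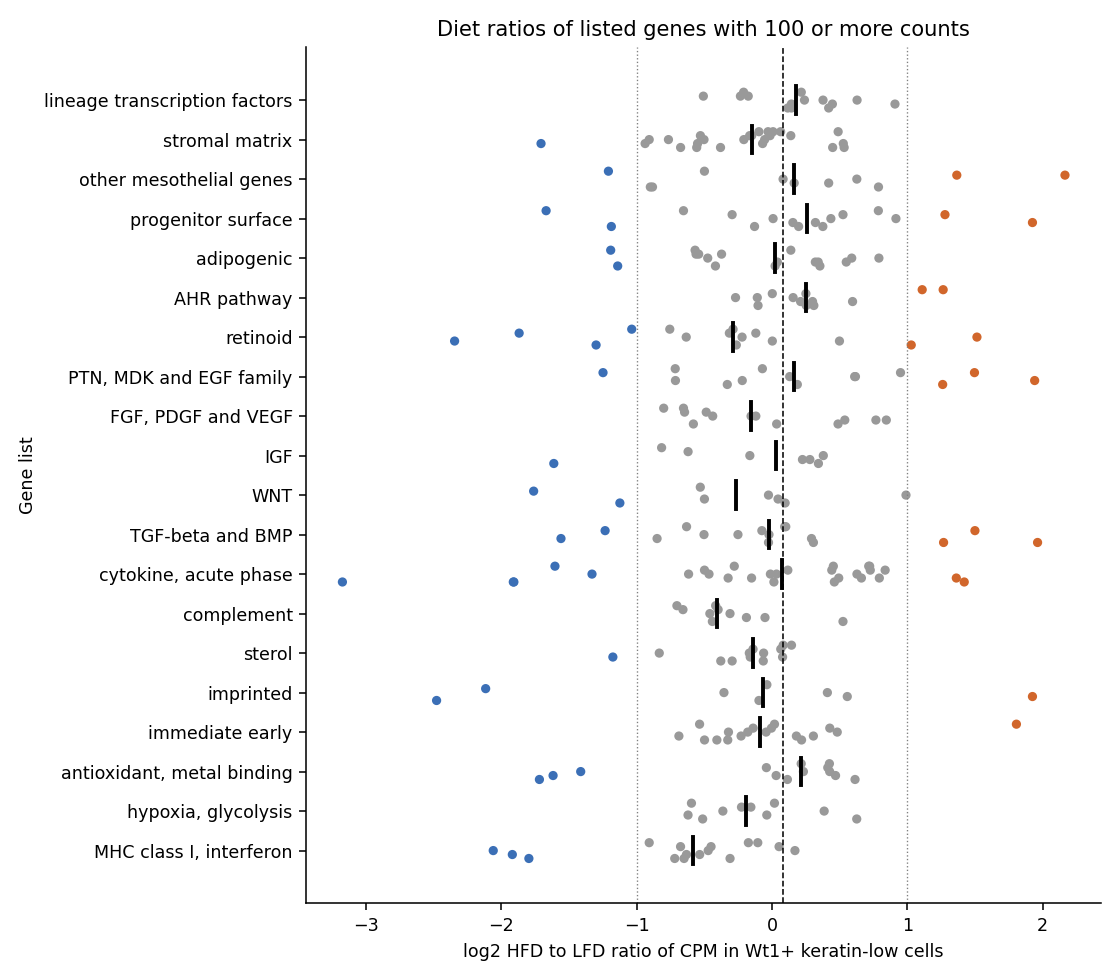
Log2 HFD to LFD ratio (horizontal) of each listed gene with at least 100 counts in Wt1+ keratin-low cells, by gene list (rows); orange and blue dots are at least 2-fold higher or lower on HFD, black bars are list medians, dotted lines mark 2-fold and the dashed line the median of all genes, 0.08. Of the lists shown, MHC class I and interferon genes had the lowest median, -0.58, and the lineage transcription factors lay within 2-fold.

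Of the lineage transcription factors 0 of 14 were past 2-fold, near the share of all genes, with a median log2 ratio of 0.18, and 8 had counting intervals above 1 and 4 below. Gata6, a factor of visceral mesoderm, was at 260 CPM on LFD and 338 CPM on HFD, and Meis2, a homeobox factor, at 205 and 223 CPM. Twist1, a factor of mesenchyme, was at 82.7 and 128 CPM. Tcf21, a factor of visceral adipose progenitors, held 6 counts on LFD and 4 on HFD, so it was at or near 0 on both.

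Genes of the AHR pathway had a median log2 ratio of 0.25, with 2 of 13 past 2-fold higher on HFD and 0 lower. Cyp1a1, the classical AHR target whose promoter drives the reporter (chr9:57687928-57703824, plus strand), was low, at 7.41 CPM (290 counts) on LFD and 15.99 CPM (253 counts) on HFD. Its ratio was 2.16 (1.81 to 2.56) and lay between 1.45 and 3.10 over the alternative settings, past 2-fold in 8 of 13. Thinned cells with a Cyp1a1 UMI were 2.52% on LFD and 4.26% on HFD (4.85% and 8.75% unthinned), against 65.3% and 60.2% of endothelial cells, where the level was 594 and 607 CPM. Of thinned plasma cells, which were chosen without UMIs of Wt1 or Pdgfra, 2.09% and 0.898% held a Cyp1a1 UMI, at 2.72 and 1.72 CPM, so the LFD share in the chosen cells lay close to that in plasma cells and the HFD share above it. At this depth few of these eYFP+ cells held a Cyp1a1 transcript 5 days after FICZ. The related Cyp1b1 (chr17:79701537-79715061, minus strand) was at 753 and 932 CPM, a ratio of 1.24 (1.21 to 1.26), detected in 91.5% and 94.3% of thinned cells, and was at 124 and 121 CPM in endothelial cells. Tiparp, an ADP-ribosyltransferase that restrains AHR (chr3:65528410-65555518, plus strand), was at 238 and 359 CPM, a ratio of 1.51 (1.46 to 1.56), and the AHR repressor Ahrr (chr13:74211118-74292331, minus strand) at 16.2 and 19.9 CPM, a ratio of 1.23 (1.07 to 1.41). The receptor Ahr itself was at 19.8 and 18.4 CPM, and its partner Arnt at 36.0 and 36.1 CPM. Nqo1, a quinone reductase, was at 14.2 and 34.2 CPM, a ratio of 2.40 (2.13 to 2.71) that lay between 2.12 and 2.79 over the settings, and was detected in 6.56% and 15.04% of thinned cells against 0.418% and 0.0898% of plasma cells. Cyp1a2 held 0 counts on both diets, which allows up to 0.0767 CPM on LFD and 0.190 CPM on HFD.

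Of the stromal matrix genes, 0 of 25 were past 2-fold higher and 1 lower, with a median log2 ratio of -0.15, and 5 had counting intervals above 1 and 16 below, against 35.5% and 17.5% of all genes. Col1a1 had a ratio of 0.706. The 1 gene was Col15a1, at 62.1 CPM on LFD and 19.03 CPM on HFD, a ratio of 0.306 (0.271 to 0.345). That ratio lay between 0.270 and 0.673 over the settings and was past 2-fold in 9 of 13, and Col15a1 was also one of the genes graded by the keratin list, at 99.6 and 21.2 CPM in the 2 strata of LFD cells. Fn1, fibronectin, had a ratio of 1.44 and Col6a1 one of 1.40.

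Progenitor surface genes had a median log2 ratio of 0.26, with 2 of 16 past 2-fold higher and 2 lower. Beside Dlk1, the tissue factor F3 was higher on HFD, at 10.4 CPM on LFD and 25.2 CPM on HFD, and Cd34, a sialomucin of stem and precursor cells, was at 163 and 308 CPM, a ratio of 1.89. The lower genes were the flavin monooxygenase Fmo2, at 24.9 and 7.84 CPM, and the growth factor Clec11a, with a ratio of 0.439 (0.657 nearest to 1). Adipogenic genes had a median of 0.02, with 0 of 17 past 2-fold higher and 2 lower, Klf15 (0.454, and 0.753 nearest to 1) and Ggt5 (0.438, and 0.642). Pparg, the master regulator of adipocyte differentiation, held 5 counts on LFD and 3 on HFD, and Ebf2 3 and 0, while Lpl, a lipase, was at 133 and 103 CPM.

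Retinoid genes were split, with 2 of 15 past 2-fold higher on HFD, 4 lower and a median log2 ratio of -0.29. Of the enzymes that make retinoic acid, Aldh1a1 was at 101 CPM on LFD and 207 CPM on HFD, a ratio of 2.04 (1.95 to 2.14) that lay between 1.56 and 2.58 over the settings, and Aldh1a3 was at 2.48 and 7.08 CPM, with a ratio of 1.41 nearest to 1. The genes lower on HFD bind, carry or reduce retinoids or respond to them. Rbp4, the retinol carrier of plasma, was at 15.4 and 3.03 CPM, a ratio of 0.197 (0.144 to 0.264), and Crabp2, which carries retinoic acid to its receptor, at 34.4 and 9.42 CPM, a ratio of 0.274 (0.230 to 0.325). The retinaldehyde reductase Dhrs3 was at 127 and 51.4 CPM and Rarres2, the gene of chemerin, at 299 and 146 CPM, with ratios of 0.553 and 0.557 nearest to 1. Crabp2, like Col15a1, was graded by the keratin list, at 50.4 and 16.9 CPM in the 2 strata of LFD cells and 17.3 and 7.95 CPM in those of HFD cells.

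Growth factor genes were read by family. Of the PTN, MDK and EGF family, 3 of 14 were past 2-fold higher on HFD and 1 lower, with a median log2 ratio of 0.16. The higher genes were the EGF receptor ligands Areg, at 8.21 CPM on LFD and 19.7 CPM on HFD, Tgfa, at 2.74 and 7.71 CPM, and Btc, at 1.48 and 5.69 CPM, and the lower one was the ligand Epgn, with a ratio of 0.421. Areg stayed past 2-fold in all 13 settings, while nearest to 1 the ratio was 1.04 for Btc, 1.97 for Tgfa and 0.761 for Epgn, and the receptor Egfr had a ratio of 1.09. Of the IGF genes, 1 of 8 was past 2-fold, with a median of 0.03. This was Igf1, at 318 and 104 CPM, a ratio of 0.327 (0.311 to 0.344), in 59.7% and 32.2% of thinned cells against 8.86% and 12.2% of endothelial cells. Its ratio lay between 0.298 and 0.428 over the settings and was 0.501 in keratin-high and 0.598 in fibroblastic cells. The FGF, PDGF and VEGF genes had 0 of 13 past 2-fold and a median of -0.16.

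Of the WNT genes, 0 of 8 were past 2-fold higher and 2 lower, with a median log2 ratio of -0.26. Wnt4, which the chosen cells held at 673 CPM on LFD and 694 CPM on HFD, had a ratio of 1.03, and the lower genes were the secreted WNT antagonists Sfrp1, at 18 and 5.31 CPM, and Dkk3, at 25.5 and 11.7 CPM, with ratios of 0.597 and 0.544 nearest to 1. Of the TGF-beta and BMP genes, 3 of 16 were past 2-fold higher and 2 lower, with a median of -0.02. The ligands Bmp2 (1.02 and 3.98 CPM), Gdf6 (10.6 and 25.4 CPM) and Inhbb (ratio 2.83) were higher on HFD. The activin-binding protein Fst (25.4 and 10.8 CPM) was lower, and was past 2-fold in 8 of the 13 settings, with a ratio of 0.680 nearest to 1.

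Cytokine and acute phase genes had a median log2 ratio of 0.07, with 2 of 28 past 2-fold higher on HFD and 5 lower. Saa3 (chr7:46711998-46715700, minus strand) was at 15676 CPM on LFD and 4167 CPM on HFD, a ratio of 0.266 (0.264 to 0.268) that lay between 0.234 and 0.306 over the settings. Its ratio was 0.336 in keratin-high and 0.0622 in fibroblastic cells. A Saa3 UMI was also present in 62.3% of thinned plasma cells on LFD and 12.3% on HFD, so its share of cells, 98.9% and 89.5%, is less informative than its level. Lcn2, another acute phase protein, was at 48.2 and 15.9 CPM, and Cxcl12, the chemokine that retains haematopoietic cells, at 150 and 59.7 CPM, and Hp and Ccl11 were the other lower genes. The genes past 2-fold higher were Il11 (1.97 and 5.06 CPM) and Lif (3.12 and 8.34 CPM), both of the interleukin 6 family. Nearest to 1, their ratios were 1.71 and 1.22, that of Lcn2 0.558 and that of Cxcl12 0.542. Other genes of the list lay within 2-fold in both directions, with Il6 at 182 and 247 CPM, Ccl2 at 1139 and 1800 CPM and Ptgs2, an inducible prostaglandin synthase, at 212 and 378 CPM. The chemokines Cxcl5 (ratio 0.652) and Cxcl13 (0.708) were lower, and 1 HFD cell held 16.5% of the Cxcl13 counts. Of the 28 genes 14 had counting intervals above 1 and 11 below, against 35.5% and 17.5% of all genes.

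Complement genes had 0 of 10 past 2-fold and a median log2 ratio of -0.41, with C3 at 2386 CPM on LFD and 1512 CPM on HFD. MHC class I and interferon genes had a median of -0.58, with 0 of 16 past 2-fold higher and 3 lower. Of the 16, 13 had counting intervals below 1, beside 8 of the 10 complement genes, 16 of the 25 matrix genes, 10 of the 15 retinoid genes and 17.5% of all genes. The 3 genes were H2-Q7, a class I gene whose reads may be shared with similar copies, at 75.5 and 21.7 CPM, and the interferon-induced Ifit1, at 53.0 and 14.03 CPM, and Ifit3, at 16.3 and 3.92 CPM. One HFD cell held 56.5% of the Ifit3 counts, and the ratio of Ifit3 was 0.772 nearest to 1. Ifit1 was detected in 10.9% of thinned LFD and 4.71% of thinned HFD cells, beside 14.8% and 7.73% of endothelial cells. B2m, the light chain of class I, had a ratio of 0.637 and H2-K1 one of 0.626.

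Of the antioxidant genes, 0 of 13 were higher and 3 lower, with a median log2 ratio of 0.22, and the lower genes were the metallothioneins Mt1, at 1070 CPM on LFD and 349 CPM on HFD, and Mt2, at 284 and 107 CPM, with the cystine transporter Slc7a11, with a ratio of 0.304 (0.702 nearest to 1). Of the imprinted genes, 1 of 8 was higher (Dlk1) and 2 lower (H19, at 68.2 and 15.7 CPM, and Cdkn1c), with a median of -0.07. Sterol genes had 0 of 13 higher and 1 lower (Hsd11b1, which regenerates active glucocorticoid, with a ratio of 0.443 and 0.561 nearest to 1), immediate early genes 1 of 18 higher (Hspa1b) and 0 lower, and hypoxia and glycolysis genes 0 of 10 in either direction. Of the other mesothelial genes, 2 of 11 were higher (Pkhd1l1 and the claudin Cldn15, at 6.77 and 17.4 CPM, with a ratio of 1.54 nearest to 1) and 1 lower (the chaperone Clu, at 1332 and 576 CPM), with a median of 0.16. Retn, the gene of resistin and the only gene of the adipocyte list past 2-fold, was at 28.1 and 9.48 CPM. Of the endothelial genes, 0 of 7 were higher and 2 lower, with a median of -0.48. These were Egfl7, at 8.36 and 3.35 CPM (a ratio of 0.401, and 0.592 nearest to 1), and Cdh5, at 4.78 and 1.71 CPM on 187 and 27 counts, whose ratio of 0.357 was 1.07 with at least 2000 UMIs and under 5% mitochondrial UMIs.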

How the data were processed

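Single-cell libraries (10x 3' chemistry) of sorted eYFP+ gWAT SVF cells were analysed, 1 per diet. The authors deposited UMI counts per gene and cell. The submitters' processing notes name Cell Ranger 4.0.0, STAR, bcl2fastq 2.17.1.14, Seurat 4.1.0 and build mm10, and the annotation release is not given in the sources used here. Cells were filtered on UMIs, genes and mitochondrial share at the limits given in the report, and chosen by the gene rule. The study excluded doublets, whereas no doublet caller was run here.

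UMI counts were summed per diet and scaled to CPM of all UMIs of the cells concerned. HFD to LFD ratios had exact conditional binomial 95% intervals, levels exact Poisson and shares Clopper-Pearson ones. All cover counting error only. Where 1 group held 0 counts, a floor of 3 counts was used. Genes with at least 100 counts were compared, and a ratio of 2 or more in either direction counted as past the fold. Named genes were the 15 highest lower bounds and 15 lowest upper bounds of the diet ratio, the 15 highest folds over all other cells, the 10 highest and 10 lowest folds against keratin-high and fibroblastic cells (the fold nearer to 1 of the 2 libraries), and the genes of the lists, of which a few are not reported here. The members and the lists were chosen with earlier results of these data known. For shares and variation, cells were thinned to 5000 UMIs (seed 1), and shallower cells were left out. Gene positions are from the GRCm38 annotation and promoters from RefSeq. Ratios and intervals were tested on simulated counts. Python 3.11.15 was used with NumPy 2.4.6, SciPy 1.17.1, pandas 2.3.3 and matplotlib 3.10.9.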

Additional observations from a re-analysis of the deposited data

Results flagged for a closer look

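For 8 listed genes, the counting intervals of the diet ratio in the Wt1+ keratin-low cells and in the fibroblastic cells of the same libraries lay on opposite sides of 1, each at least 1.5-fold away from it. These differences were not tested, since each diet is 1 library. The progenitor gene Fmo2 had a ratio of 0.314 in the Wt1+ keratin-low cells and 3.03 in the fibroblastic cells, so the former was 0.104 times the latter. The basement membrane collagens Col4a1 (0.626 against 2.12, a quotient of 0.296) and Col4a2 (0.522 against 1.75, a quotient of 0.298) stood in the same order, as did Star, a cholesterol carrier of steroid-forming cells (0.561 against 2.73, a quotient of 0.206), and the eosinophil chemokine Ccl11 (0.267 against 1.78, a quotient of 0.150, on 11 HFD counts). The plasma cell genes stood in the opposite order, with Jchain at 4.85 against 0.554 (a quotient of 8.75), Igkc at 3.05 against 0.457 (6.67) and Mzb1 at 2.19 against 0.443 (4.94). In the LFD library the fibroblastic cells held Igkc at 2125 CPM and the Wt1+ keratin-low cells at 279 CPM.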

How the results depend on the processing

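No paired analysis was possible because each diet has 1 library, and for the same reason no library could be left out. The share of Wt1+ keratin-low cells was lower on HFD in all 7 alternatives that recomputed it, and the cause of the shifts below was not tested. The share of these cells on LFD and HFD and its ratio were 20.4%, 5.89% and 0.288 with at least 2000 UMIs and under 5% mitochondrial UMIs, 25.7%, 6.04% and 0.235 with the rule applied after thinning, 47.8%, 17.4% and 0.365 without cells holding 2 or more genes of another cell type, 17.2%, 1.78% and 0.104 with at most 1 keratin-list gene, and 19.5%, 4.39% and 0.225 with 5 or more markers. The LFD share was 32.3% without the 5% of cells with the most UMIs. Leaving out cells with 2 or more genes of another cell type kept only 1703 LFD and 381 HFD chosen cells, 53.3% and 42.8% of them. The remaining chosen cells did hold such genes, and doublets were not called. The number of genes compared changed with the setting, so counts are given with their share of it. Genes at least 2-fold higher on HFD were 143 (1.26%) and, with no count minimum, 1215 (7.17%). Genes at least 2-fold lower were 268 (2.35%), and 100 (1.28%) under the stricter quality control, where 109 were higher, 172 (1.71%) without cells of other types, 406 (3.25%) with a minimum of 50 counts, 1225 (7.23%) with no minimum and 159 (1.52%) in cells with 2 to 4 keratin-list genes. Listed genes at least 2-fold lower went from 33 (10.4%) to 52 (13.4%) with no minimum. The settings on 2 to 4 keratin-list genes, on at most 1 such gene with 8000 to 20000 UMIs, and without the cells highest in immunoglobulin were chosen after seeing the data. Ighm had a ratio of 1.97 without the 5% of cells with the most UMIs and 1.66 in cells with at most 1 keratin-list gene and 8000 to 20000 UMIs. Scaling to the median gene would move each log2 ratio by 0.08. Depth limits genes near 1 CPM, where a counting interval can span several fold.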
